A study of Mus musculus with 8 samples.

Results

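Nuclear envelope and lamina genes were examined in spleen neutrophils of *Cxcr2-/-* and WT mice. The genes were the 10 rows of the count tables whose Ensembl identifiers carry the symbols *Lmna*, *Lmnb1*, *Lmnb2*, *Lbr*, *Sun1*, *Sun2*, *Syne1*, *Emd*, *Tmpo* and *Banf1* in GENCODE M21, of 55414 genes listed. All 10 passed the filter on low counts, among 16778 genes tested. Neutrophils were sorted as CD45+ CD11b+ Ly6G+ F4/80- cells after CD11b enrichment, and RNA of 4 WT and 4 *Cxcr2-/-* mice was sequenced after ribosomal RNA depletion, 1 library per mouse. Both groups were FVB mice aged 10 weeks, kept in a SOPF facility and given no treatment. The *Cxcr2-/-* mice were a line backcrossed to FVB, in which every cell type, and not neutrophils alone, lacks the receptor. The gate took Ly6G-high and Ly6G-low cells together. In such bulk samples, fewer cells of a type and less RNA per cell cannot be told apart.

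The nuclear lamina is a mesh of lamin filaments under the inner nuclear membrane. Lamins A and C come from *Lmna*, and the B-type lamins from *Lmnb1* and *Lmnb2*. Lbr, a membrane protein with a sterol reductase domain, holds the lamina and heterochromatin at the membrane, and neutrophil nuclei that lack it do not form lobes. SUN proteins of the inner membrane and nesprins of the outer membrane, such as the product of *Syne1*, form the LINC complex that ties the nucleus to the cytoskeleton. Emerin (*Emd*) and the lamina-associated polypeptides of *Tmpo* carry a LEM domain, which binds the small chromatin protein Banf1. Segmented neutrophils are known for a soft nucleus with little lamin A.

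Library sizes were similar between the groups, with 34220182 to 46233555 counts on genes per WT library and 37549648 to 43789253 per *Cxcr2-/-* library. The 10 genes had between 43 and 166679 counts in a library. *Cxcr2* itself averaged 1956 ± 221 CPM over WT libraries and 17.1 ± 3.46 CPM over *Cxcr2-/-* libraries (SD, n = 4 each), in the direction of each label. CPM are counts divided by the TMM-scaled library size. The summed level of 10 neutrophil genes, among them *S100a8*, *S100a9* and *Ly6g*, was 41182 to 57195 CPM in WT and 89796 to 115142 CPM in *Cxcr2-/-* libraries, and 8 of the 10 rose. *Csf3r*, the G-CSF receptor gene, fell from 6960.3 ± 462 to 3334 ± 147 CPM (log2 fold change -1.06), and *Itgam* did not pass. By the rule given below, 23.7% of all genes tested rose and 21.0% fell. Read pairs that the counting assigned to no feature made up 31.4% of pairs in WT replicate 1. They made up 40.0% to 41.5% in the other WT libraries and 26.7% to 31.9% in *Cxcr2-/-* libraries. Whether these pairs lie within or outside genes was not examined.

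Of the 10 genes, 4 were higher and 2 lower in *Cxcr2-/-* neutrophils with an adjusted p under 0.05 (edgeR quasi-likelihood test, Benjamini-Hochberg over all genes tested). The transcripts of *Banf1*, *Lmnb2*, *Syne1* and *Sun1* rose, those of *Lmna* and *Lmnb1* fell, and *Lbr*, *Sun2*, *Emd* and *Tmpo* did not pass the test. Of all genes tested, 44.7% were called by the same rule, 23.7% as higher and 21.0% as lower. All 6 genes also changed at least 1.5-fold, a rule met by 31.3% of all genes tested. For these 6 genes the WT and *Cxcr2-/-* ranges did not overlap, as for 41.6% of all genes tested, and they overlapped for the other 4. The median log2 fold change was 0.19 over the 10 genes and 0.01 over all genes tested.

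**Figure D1:**
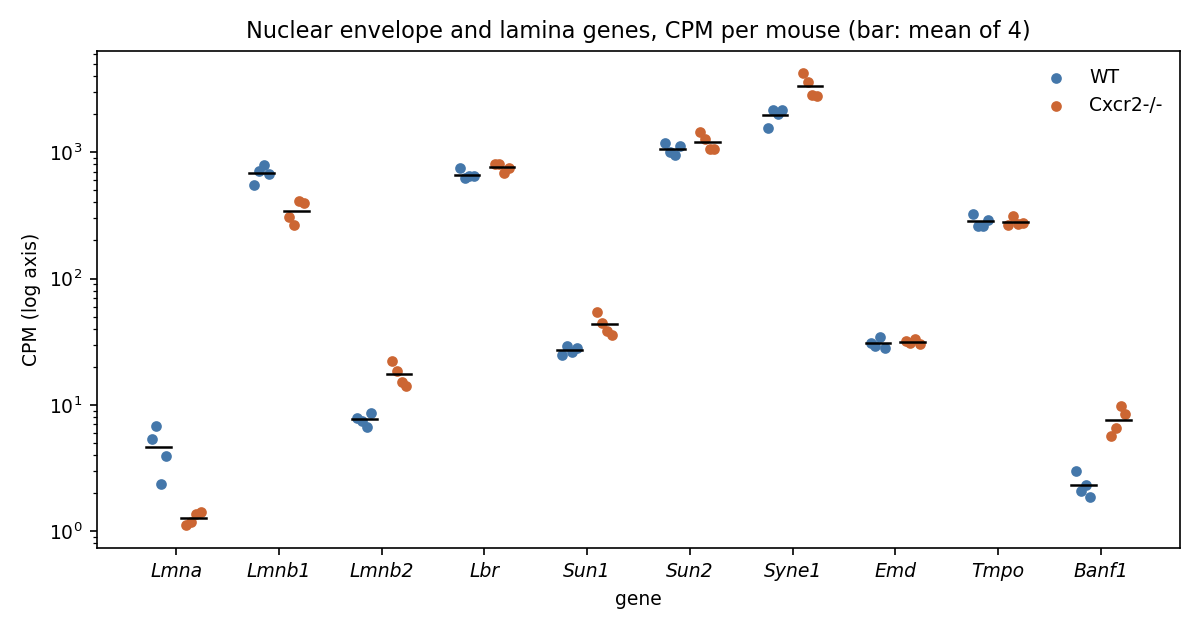
CPM of each of the 10 genes (horizontal axis) in each library on a log axis (points, 4 WT in blue and 4 *Cxcr2-/-* in orange), with the mean of each group as a black bar. The groups stand apart for *Lmna*, *Lmnb1*, *Lmnb2*, *Sun1*, *Syne1* and *Banf1*, and overlap for *Lbr*, *Sun2*, *Emd* and *Tmpo*.

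Stretches of 2 lamin transcripts and of 2 promoters are shown first. Lamin A and the B-type lamins are made with a CaaX box at their end, where a farnesyl group is attached, and the ends of the coding sequence are printed with the codons of that box in capitals and the stop codon after them. Both genes lie on the minus strand of GRCm38. The *Lmna* stretch is from the transcript with the CaaX box (chr3:88482074-88482100 and chr3:88482346-88482363), since lamin C ends without one, and the *Lmnb2* stretch spans chr10:80902859-80902900 and chr10:80903212-80903214.
Lmna: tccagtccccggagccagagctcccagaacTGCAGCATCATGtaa
Lmnb2: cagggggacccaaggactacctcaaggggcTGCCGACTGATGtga
Counts were made per gene, so that lamin A and lamin C transcripts are not separated in the values of *Lmna*.

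*Sun1* and *Sun2* encode the SUN proteins of somatic cells, and the 250 bases before the start site of each are printed from RefSeq (GRCm38.p6), *Sun1* from the plus strand of chr5:139200387-139200636 and *Sun2* from the minus strand of chr15:79742537-79742786. Capitals mark the CCAAT box, the motif of NF-Y, or its reverse complement ATTGG.
Sun1: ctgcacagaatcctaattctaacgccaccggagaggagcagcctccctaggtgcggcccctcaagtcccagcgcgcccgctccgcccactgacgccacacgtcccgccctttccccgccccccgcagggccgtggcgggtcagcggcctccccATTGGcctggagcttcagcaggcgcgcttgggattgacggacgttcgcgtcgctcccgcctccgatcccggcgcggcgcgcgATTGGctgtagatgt
Sun2: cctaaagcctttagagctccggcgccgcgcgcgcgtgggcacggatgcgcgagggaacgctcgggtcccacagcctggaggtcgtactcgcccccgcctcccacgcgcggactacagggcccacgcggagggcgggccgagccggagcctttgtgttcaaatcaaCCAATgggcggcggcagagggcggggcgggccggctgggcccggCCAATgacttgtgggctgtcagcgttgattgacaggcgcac
Each of the SUN promoters held 2 CCAAT boxes. On either strand of these 250-base windows, CCAAT was found for 6 of the 9 genes with a promoter used (*Lbr*, *Sun1*, *Sun2*, *Emd*, *Tmpo* and *Banf1*) and in 33.8% of all 32851 promoters. Of the genes that were called, *Lmna*, *Lmnb2* and *Syne1* held none in the window used, and no window of *Lmnb1* was used. The start site used lay 6604 bases from the GENCODE start of the gene for *Lmna* and 9696 bases for *Tmpo*. For the others it lay at most 790 bases away. The GC box GGCGGG was found for 7 of the 9 genes and in 32.5% of all promoters, and the cell cycle element TTTGAA for 2 of the 9 (*Lbr* and *Sun2*) and in 16.0%.

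The lamin genes changed in opposite directions. *Lmna* and *Lmnb1* fell in *Cxcr2-/-* neutrophils, while *Lmnb2* rose. *Lmna* (ENSMUSG00000028063, chr3:88480147-88509956, minus strand) measured 5.33, 6.83, 2.35 and 3.96 CPM in the 4 WT mice and 1.11, 1.19, 1.37 and 1.41 CPM in the 4 *Cxcr2-/-* mice. Every *Cxcr2-/-* library lay below every WT library, and the WT libraries were the more scattered. The mean fell 3.64-fold, from 4.62 ± 1.91 CPM to 1.27 ± 0.143 CPM (SD, n = 4 each, log2 fold change -1.86, standard error 0.29, adjusted p = 2.52e-04 with edgeR). These values rest on 88 to 340 counts per WT library and 43 to 58 per *Cxcr2-/-* library. WT replicate 2, the highest for *Lmna*, was also the highest for the macrophage genes *C1qa*, *C1qb*, *C1qc* and *Vcam1*, whose sum was 39.4 CPM there, 2.02 to 11.8 CPM in the other WT libraries and 2.10 to 11.4 CPM in *Cxcr2-/-* libraries. The sum of 11.8 CPM was that of WT replicate 3, the lowest WT library for *Lmna*. These 4 genes were picked from the macrophage and monocyte list after their values were seen, and its most abundant genes were not highest there, with *Ly6c2* lowest of all libraries in WT replicate 2 (194 CPM) and *Csf1r* at 425 CPM there against 403 to 499 CPM in the other WT libraries. *Adgre1* was highest in WT replicate 2, at 36.5 CPM against 26.6 to 32.1 CPM. The sum of the whole list in WT replicate 2, 703 CPM, was at the low end of the WT range. The dendritic cell sum was also highest there, at 30.6 CPM against 6.25 to 11.7 CPM in the other WT libraries. The part of such cells in the level of *Lmna* was not tested. Without WT replicate 2 the log2 fold change of *Lmna* was -1.64, and the same edgeR test gave an adjusted p of 8.39e-04.

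*Lmnb1* (ENSMUSG00000024590, chr18:56707813-56753424, plus strand) was the abundant lamin gene of these cells, at 554, 709, 798 and 667 CPM in WT mice, against 307, 265, 412 and 395 CPM in *Cxcr2-/-* mice. The groups did not overlap. Its mean fell 1.98-fold, from 682 ± 101 CPM to 345 ± 70.6 CPM (log2 fold change -0.98, standard error 0.15, adjusted p = 2.47e-04 with edgeR). *Lmnb2* (ENSMUSG00000062075, chr10:80901203-80918245, minus strand) encodes the other B-type lamin and was far lower, at 7.91, 7.46, 6.63 and 8.65 CPM in WT mice, against 22.1, 18.5, 15.2 and 14.0 CPM in *Cxcr2-/-* mice. All *Cxcr2-/-* libraries lay above all WT libraries, and replicate 1 was the highest. The mean rose 2.28-fold, from 7.66 ± 0.846 CPM to 17.5 ± 3.63 CPM (log2 fold change 1.19, standard error 0.16, adjusted p = 5.89e-05 with edgeR).

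*Lbr* (ENSMUSG00000004880, chr1:181815335-181843046, minus strand), the lamin B receptor gene, was at 745, 622, 644 and 650.02 CPM in WT mice, against 808, 812, 688 and 744 CPM in *Cxcr2-/-* mice. The groups overlapped through WT replicate 1, which lay above 2 of the *Cxcr2-/-* libraries. The means were 665 ± 54.7 CPM and 763 ± 59.0 CPM, and the difference missed the threshold (log2 fold change 0.20, standard error 0.10, adjusted p = 0.138 with edgeR). Without WT replicate 1 the log2 fold change was 0.26, and the adjusted p of 0.0699 also missed the threshold. On the opposite strand, *Dnah14* shares 9.24% of the exon bases of *Lbr*.

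Among the LINC complex genes, *Syne1* and *Sun1* rose and *Sun2* did not pass the test. *Syne1* (ENSMUSG00000096054, chr10:5020917-5551482, minus strand), the gene of the giant outer membrane protein nesprin-1, was at 1541, 2142, 1997 and 2140.4 CPM in WT mice, against 4214, 3590, 2837 and 2809.9 CPM in *Cxcr2-/-* mice. No WT library reached the lowest *Cxcr2-/-* library. The mean rose 1.72-fold, from 1955 ± 284 CPM to 3362 ± 673 CPM (log2 fold change 0.78, standard error 0.16, adjusted p = 0.00156 with edgeR). Its exons in the annotation cover 40.5 kb, the most of the 10 genes, and the counts do not tell its long transcripts from its short ones.

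*Sun1* (ENSMUSG00000036817, chr5:139200637-139249840, plus strand) was at 24.7, 29.3, 26.0 and 27.9 CPM in WT mice, against 54.6, 44.8, 38.1 and 35.9 CPM in *Cxcr2-/-* mice. Here too the groups stood apart, with replicate 1 the highest of the *Cxcr2-/-* libraries. The mean rose 1.61-fold, from 27.0 ± 2.05 CPM to 43.4 ± 8.40 CPM (log2 fold change 0.68, standard error 0.13, adjusted p = 8.88e-04 with edgeR). Without *Cxcr2-/-* replicate 1 the log2 fold change was 0.56 for *Sun1*, which is less than 1.5-fold, and 0.66 for *Syne1*, and both kept an adjusted p under 0.05. *Sun2* (ENSMUSG00000042524, chr15:79724070-79742536, minus strand) was the abundant SUN gene and ranged from 956 to 1188 CPM in WT and from 1062 to 1453 CPM in *Cxcr2-/-* mice. The ranges overlapped (log2 fold change 0.19, standard error 0.13, adjusted p = 0.257 with edgeR).

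Of the LEM domain genes *Emd* and *Tmpo* and their partner *Banf1*, only *Banf1* passed the test. *Banf1* (ENSMUSG00000024844, chr19:5364638-5367168, minus strand), whose product bridges DNA and the envelope when the nucleus reforms after mitosis, had the largest change of the 10 genes after *Lmna*. It was at 3.01, 2.07, 2.30 and 1.85 CPM in WT mice, against 5.66, 6.50, 9.71 and 8.43 CPM in *Cxcr2-/-* mice. The lowest *Cxcr2-/-* library was above the highest WT library. The mean rose 3.28-fold, from 2.31 ± 0.501 CPM to 7.58 ± 1.83 CPM (log2 fold change 1.71, standard error 0.22, adjusted p = 4.75e-05 with edgeR). *Eif1ad* covers 28.6% of the exon bases of *Banf1* from the opposite strand, and the strand setting of the counting is not stated, so that reads of the shared stretch are uncertain.

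*Emd* (ENSMUSG00000001964, chrX:74254687-74261548, plus strand) ranged from 28.3 to 34.2 CPM in WT and from 30.4 to 33.4 CPM in *Cxcr2-/-* mice (log2 fold change 0.05, standard error 0.09, adjusted p = 0.677 with edgeR). Its annotated exons hold a stretch of 321 bases that is 98.1% identical to the translation factor gene *Eif1*. *Tmpo* (ENSMUSG00000019961, chr10:91147571-91181315, minus strand) ranged from 262 to 326 CPM in WT and from 263 to 315 CPM in *Cxcr2-/-* mice (log2 fold change -0.02, standard error 0.10, adjusted p = 0.879 with edgeR). Neither gene showed a difference larger than the spread between the mice of a group.

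**Figure D2:**
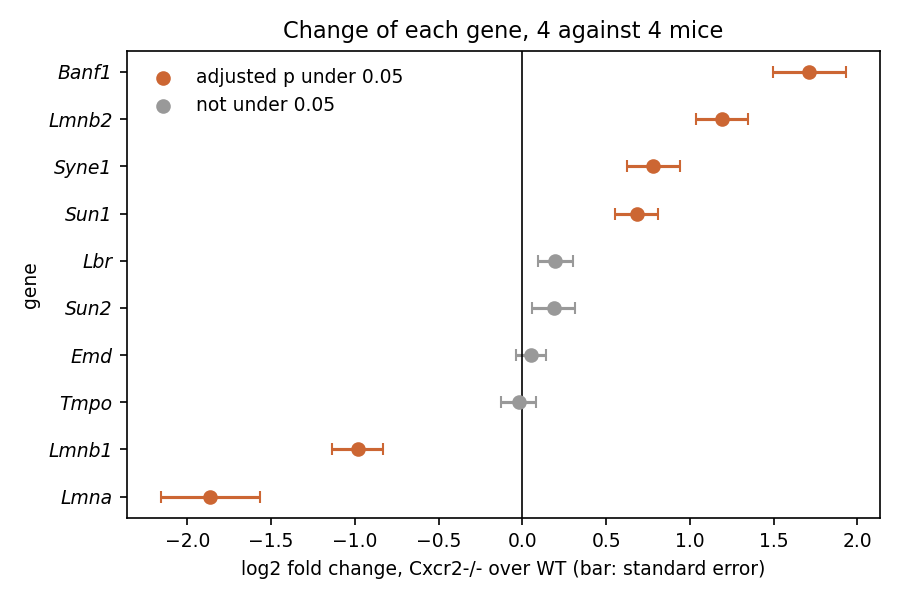
Log2 fold change of each of the 10 genes, *Cxcr2-/-* over WT (horizontal axis), with its standard error as a bar. *Banf1*, *Lmnb2*, *Syne1* and *Sun1* lie from 0.68 to 1.71, *Lmnb1* and *Lmna* lie at -0.98 and -1.86 (orange, adjusted p under 0.05), and the other 4 lie between -0.02 and 0.20 (grey).

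To compare levels between genes, CPM were divided by the kilobases of exon of each gene. In WT neutrophils *Lmnb1* stood highest, at 230.2 ± 34.2 CPM per kb, and *Sun2* followed at 197 ± 19.7 CPM per kb, but the ranges of this pair overlapped. *Lbr* came next at 139.8 ± 11.5 CPM per kb, then *Syne1* at 48.3 ± 7.02, *Tmpo* at 26.0 ± 2.77 and *Emd* at 12.2 ± 1.02 CPM per kb (SD, n = 4). *Sun1*, *Lmnb2*, *Banf1* and *Lmna* closed the order, with 3.55 ± 0.269, 1.79 ± 0.197, 1.54 ± 0.335 and 0.791 ± 0.328 CPM per kb. *Lmnb2* and *Banf1* overlapped in WT, and the other neighbours did not.

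In *Cxcr2-/-* neutrophils *Sun2* stood highest, at 224 ± 34.8 CPM per kb, followed by *Lbr* at 160.3 ± 12.4 CPM per kb. *Lmnb1* held only the third place, at 116 ± 23.8 CPM per kb, and its range met that of *Syne1*, at 83.0 ± 16.6 CPM per kb. *Tmpo* and *Emd* followed at 25.6 ± 2.10 and 12.6 ± 0.534 CPM per kb. *Sun1*, *Banf1* and *Lmnb2*, at 5.71 ± 1.11, 5.06 ± 1.23 and 4.08 ± 0.847 CPM per kb, overlapped as neighbours, and *Lmna* was last at 0.218 ± 0.0245 CPM per kb. With the longest transcript as the length of each gene, *Sun2* and *Lmnb1* changed places in WT, and the *Cxcr2-/-* order stayed as given for all 10 genes.

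**Figure D3:**
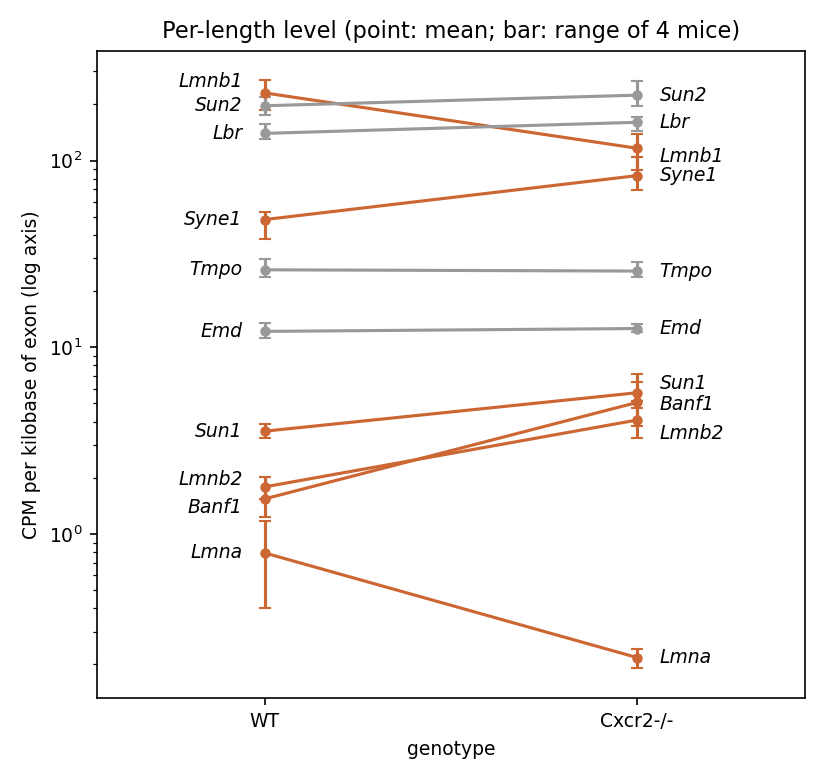
Mean level of each gene per kilobase of exon in WT and *Cxcr2-/-* neutrophils on a log axis, with the range over 4 mice as a bar (orange for genes with an adjusted p under 0.05, grey for the others). *Lmnb1* goes from 230.2 to 116 CPM per kb and falls below *Sun2* and *Lbr*, and *Lmna* is the lowest in both genotypes.

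Ratios of 2 genes within a library do not depend on the scaling between libraries, and 4 of them were compared with an exact permutation test, two-sided, in which the smallest p for 4 against 4 mice is 0.0286. The ratio of *Lmnb1* to *Lmnb2* per length was 101 to 174 in WT and 20.1 to 40.8 in *Cxcr2-/-* mice, 4.50-fold lower on average (exact permutation p = 0.0286, 0.0381 adjusted over the 4 ratios). This separation follows from the values given above, since all *Cxcr2-/-* libraries lay below WT for *Lmnb1* and above WT for *Lmnb2*. The test of this ratio could not have come out otherwise and adds no support. The ratio of *Lbr* to *Lmna* was 112 to 336 in WT and 615 to 891 in *Cxcr2-/-* mice, 3.89-fold higher (exact permutation p = 0.0286, adjusted 0.0381). The ranges of *Lbr* and *Lmna* given above fix this separation too, so this test adds no support to the fall of *Lmna*. The ratio of *Sun1* to *Sun2* was 0.0148 to 0.0210 in WT and 0.0241 to 0.0268 in *Cxcr2-/-* mice, 1.40-fold higher with the same exact p values. The ratio of *Lmna* to *Lmnb1* ranged from 0.00150 to 0.00489 in WT and from 0.00169 to 0.00228 in *Cxcr2-/-* mice, and its groups overlapped (exact permutation p = 0.143, adjusted 0.143). The overlap came from WT replicate 3 alone, the other WT libraries being at 0.00301 to 0.00489. Without WT replicate 3 the log2 difference was -1.14 in place of -0.77 (exact permutation p = 0.0286, adjusted 0.0286). Leaving out this mouse removed the overlap itself, so this p adds no support. The calls of the other 3 ratios also depended on which mouse was left out. They were lost when *Cxcr2-/-* replicate 1 or 2 (exact permutation, adjusted p = 0.0762) or 3 (adjusted p = 0.0571 to 0.0762) was left out, while the directions stayed. They were kept without any single WT replicate and without *Cxcr2-/-* replicate 4. For *Lmnb1* to *Lmnb2* the exact permutation p stayed at 0.0286 in each of these runs, so its call was lost only through the adjustment over the 4 ratios.

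**Figure D4:**
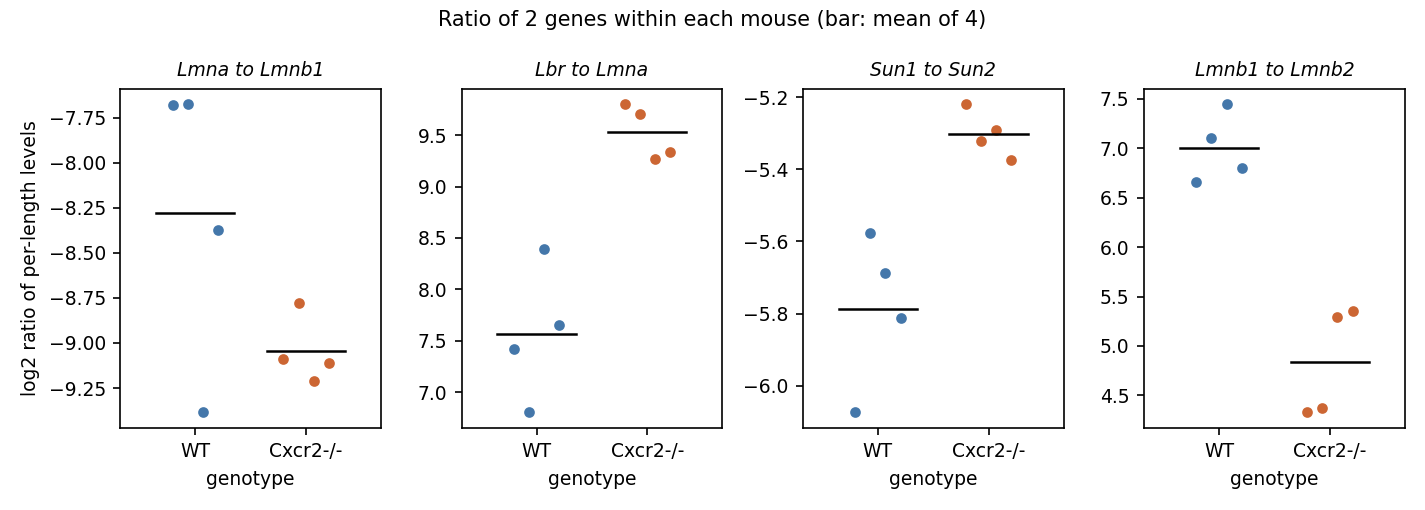
Log2 ratio of the per-length levels of 2 genes in each library (points, WT in blue and *Cxcr2-/-* in orange, black bar for the mean of 4), 1 panel per ratio. The groups stand apart for *Lbr* to *Lmna*, *Sun1* to *Sun2* and *Lmnb1* to *Lmnb2*, and overlap for *Lmna* to *Lmnb1*.

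Other genes of the nuclear envelope moved in both directions. For comparison, 23.7% of all genes tested were called higher and 21.0% lower. Of 25 genes for lamin processing and other envelope proteins, 23 were tested, 11 rose, 7 fell and 5 did not pass (edgeR, adjusted p under 0.05), with a median log2 fold change of 0.14. The largest rises by the rule for naming were those of *Syne2*, the gene of the second large nesprin, from 159 ± 18.9 to 363 ± 51.8 CPM (log2 fold change 1.19), and of *Zmpste24*, the protease that cuts the CaaX end off prelamin A, from 142 ± 4.44 to 287 ± 61.4 CPM (1.02). *Chmp7*, which recruits the machinery that seals the envelope, rose by 0.72 on the log2 scale. Adjusted p in edgeR were 1.05e-05 for *Syne2*, 6.71e-05 for *Zmpste24* and 8.52e-05 for *Chmp7*. *Tmem43*, an inner membrane protein gene, fell from 267 ± 42.0 to 142 ± 16.1 CPM (log2 fold change -0.91, adjusted p = 8.61e-05 with edgeR). *Vrk1*, the kinase that releases Banf1 from chromatin, fell from 122 ± 9.88 to 72.9 ± 2.54 CPM, and *Ankle2*, a LEM protein gene that acts on the same step, fell from 93.9 ± 7.64 to 67.2 ± 4.19 CPM. The change was -0.74 on the log2 scale for *Vrk1* (adjusted p = 2.48e-05) and -0.48 for *Ankle2* (adjusted p = 8.09e-04), both in edgeR. *Banf1* and *Vrk1* thus changed in opposite directions.

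The genes that process the CaaX box printed above did not move as 1 group. This was looked at after the values were seen. Besides *Zmpste24*, the farnesyltransferase subunit gene *Fnta* rose by 0.39 on the log2 scale (adjusted p = 0.00398), and its partner *Fntb* was at -0.30 (adjusted p = 0.139), both from edgeR. In the same edgeR test the protease gene *Rce1* rose by 0.67 (adjusted p = 0.0163) and the methyltransferase gene *Icmt* fell by 0.39 (adjusted p = 0.0178) on the log2 scale.

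Of 30 nuclear pore complex genes, 29 were tested, 18 rose, 2 fell and 9 did not pass (edgeR), with a median log2 fold change of 0.42. The same rule called 23.7% of all genes tested higher and 21.0% lower. The inner ring gene *Nup205* rose from 7.97 ± 1.33 to 22.0 ± 1.74 CPM (log2 fold change 1.46, adjusted p = 3.60e-06), the membrane anchor gene *Ndc1* from 4.68 ± 0.766 to 11.5 ± 1.95 CPM (1.29, adjusted p = 5.19e-05) and the outer ring gene *Nup160* from 12.5 ± 1.62 to 25.4 ± 2.42 CPM (1.03, adjusted p = 2.56e-05), by edgeR. The genes that fell were *Ranbp2*, of the cytoplasmic filaments, at -0.49 on the log2 scale (adjusted p = 0.00895), and *Nup98*, at -0.25 (adjusted p = 0.0348 in edgeR). A single pore gene was called lower when WT replicate 2 or 4, or *Cxcr2-/-* replicate 1, 2 or 3, was left out.

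**Figure D5:**
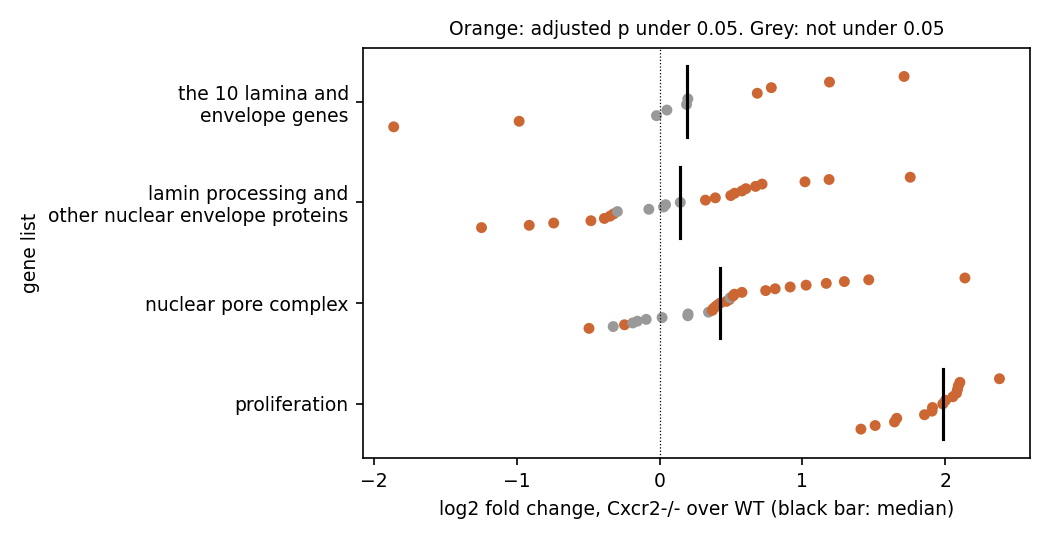
Log2 fold change, *Cxcr2-/-* over WT (horizontal axis), of each tested gene of 4 lists, 1 point per gene, with the list's median as a black bar (orange for an adjusted p under 0.05, grey otherwise). The 10 lamina and envelope genes spread from -1.86 to 1.71 around a median of 0.19, while all 15 proliferation genes lie above 0.

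Genes of dividing cells and of granulocyte precursors moved with the genotype beside these results. Among all genes tested, 23.7% rose and 21.0% fell. All 15 proliferation genes rose (edgeR, adjusted p under 0.05), with a median log2 fold change of 1.98 and a summed level of 368 to 421 CPM in WT and 1190.3 to 1333 CPM in *Cxcr2-/-* libraries. The 3 largest changes by the rule were those of *Ccnb1*, *Birc5* and *Bub1*, with log2 fold changes of 2.38, 2.10 and 2.09. *Lmnb1* fell and *Tmpo* stayed within its spread while these genes rose. The early granulocyte precursor genes, 8 of 8, rose too, with a median log2 fold change of 3.66. Their sum, 9340.1 to 11751 CPM in WT and 22543 to 30125 CPM in *Cxcr2-/-* libraries, was almost all *Ngp* and *Chil3*, which rose 2.52-fold and 2.17-fold. The primary granule genes *Mpo*, *Elane*, *Prtn3* and *Ctsg* rose 23.8-fold to 37.9-fold. *Mpo* was at 1.13 to 6.25 CPM in WT libraries, 19.1 and 20.2 CPM in *Cxcr2-/-* replicates 1 and 2, and 81.2 and 146 CPM in replicates 3 and 4, so that the last pair stood apart. *Banf1* was also highest in replicates 3 and 4, while *Lmnb2*, *Sun1* and *Syne1* were lowest there and *Lmnb1* was highest among the *Cxcr2-/-* libraries. With both of these libraries left out, an alternative chosen after seeing the data, the same 4 genes were called higher and the same 2 lower (edgeR), with log2 fold changes of 1.38 for *Banf1* (adjusted p = 3.30e-04) and -1.27 for *Lmnb1* (adjusted p = 1.64e-05). The part of dividing or less mature cells in the changes of the 10 genes was not tested.

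Markers of other cells were low beside the neutrophil sum. The shares over all genes tested were 23.7% called higher and 21.0% called lower. Of 6 B cell genes, 4 fell and none rose, with a sum of 30.7 to 68.4 CPM in WT and 15.3 to 35.2 CPM in *Cxcr2-/-* libraries. Of 8 macrophage and monocyte genes, 2 rose (*Ly6c2* and *F13a1*), 2 fell (*Csf1r* and *Adgre1*, the F4/80 gene that the gate excluded) and 4 did not pass, and their sum was 703 to 815 CPM in WT and 844 to 968 CPM in *Cxcr2-/-* libraries. The T and NK cell sum, 97.6 to 118 CPM in WT and 91.7 to 139.8 CPM in *Cxcr2-/-* libraries, came mostly from *Cd3d*, with *Cd3e* and *Cd8a* too low to be tested. The rarer markers had sums of the same order as the levels of *Lmna* and *Banf1*, and some moved with the genotype. Of 4 eosinophil and basophil genes 2 were tested and both rose, with a sum of 0.231 to 4.62 CPM in WT and 3.35 to 21.8 CPM in *Cxcr2-/-* libraries. Of 4 platelet genes 2 were tested and both fell, from a sum of 13.2 to 18.1 CPM to one of 8.31 to 13.1 CPM. Of 4 dendritic cell genes 3 were tested and 1 fell (*Zbtb46*), with a sum of 6.25 to 30.6 CPM in WT and 4.04 to 8.48 CPM in *Cxcr2-/-* libraries. None of the 3 tested erythroid genes or the 1 tested stromal and endothelial gene passed, and the sums of these lists did not exceed 11.1 CPM in any library. No listed marker was at 0 in all 8 libraries, *Hba-a2*, *Prss34* and *Mcpt8* were at 0 in all WT libraries and *Col1a2* in all *Cxcr2-/-* libraries. Whether RNA of other cells had a part in the changes was not tested.

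Patterns over the 8 libraries were compared between the 10 genes, and between each called gene and every tested gene, by the root mean square difference of log2 CPM centred on each gene's mean. Among the 45 pairs of the 10 genes, *Lbr* and *Sun2*, neither of them called, were the most alike, with a difference of 0.10 on the log2 scale, and *Sun1* and *Syne1* came next with 0.11. Over all genes, the closest to *Sun1* were *Tbc1d8* (0.03), *Gpat4* (0.04) and *Bcorl1* (0.06), and the closest to *Syne1* were *Zfp142* (0.07), *Slc12a5* (0.07) and *Hipk2* (0.09). *Lmnb2* was closest to *Slc17a9* (0.05), *Padi4* (0.06) and *Def8* (0.06), and among the 10 genes to *Syne1* (0.26). *Lmnb1* was closest to *Mir1943*, *Osm* and *Usp35* (0.10 each), and *Banf1* to *Hist1h2ae*, *Cln6* and *Mcm5* (each 0.15 after rounding). *Lmna*, whose WT libraries were scattered, had no gene closer than *Clcf1* (0.24), followed by *Mllt6* (0.28) and *Pcdh1* (0.29). Among the 10 genes its closest was *Lmnb1* (0.62), while that of *Lmnb1* was *Emd* (0.57) and that of *Banf1* was *Lmnb2* (0.51).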

How the data were processed

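The authors made strand-specific libraries after rRNA depletion, aligned trimmed reads with STAR (mm10) and used HTSeq for counting; versions, annotation and strand setting are not given in the sources used here. They deposited whole-number counts per gene for each mouse, not normalized. HTSeq's own totals stayed out of library sizes. Of 55414 identifiers, 52133 matched GENCODE M21 (GRCm38), 52096 of them with a higher version number in the files, so the counting used a later annotation than the one giving symbols, positions and exon lengths here. No column was left unused.

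Groups and replicate numbers came from the labels. Between replicates, chi-square per gene was 23.9 to 99.0, above sampling noise. Counts were tested in R 4.3.3 with edgeR 4.0.16 (quasi-likelihood, TMM, filterByExpr, Benjamini-Hochberg over 16778 genes), calls having an adjusted p under 0.05. Standard errors were derived from the F statistic. The test was first tried on simulated counts. The alternatives were DESeq2 1.42.0, RLE, upper-quartile and total-count scaling, other filters, a replicate block, a 1.5-fold threshold, another gene length, each library left out and, added after seeing the data, 2 libraries left out together.

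Members and lists were chosen with earlier results of these data known. Named from the lists were the 3 largest changes per direction among called genes (average log2 CPM 3 or more), and for each called member the 3 closest genes. *Nup58* and *Nup42* were matched by their older symbols. Near-identical stretches were sought with blastn (at least 97% over 150 bases). Promoters came from RefSeq, 1 per gene, nearest to the GENCODE start.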

Additional observations from a re-analysis of the deposited data

How the results depend on the processing

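The calls of the 10 genes, 4 higher and 2 lower, were the same genes' calls in each of the 7 other fits (DESeq2, 3 other scalings, 2 other filters and the replicate block). The same held with each of the 8 libraries left out, and without both *Cxcr2-/-* replicates 3 and 4. It also held with at least a 1.5-fold change required in the main fit. *Sun1* was under 1.5-fold with upper-quartile scaling (log2 fold change 0.563), with total counts only (0.582) and without *Cxcr2-/-* replicate 1 (0.559). Upper-quartile scaling moved the median log2 fold change of all genes from 0.01 to -0.11. Only genes that were never called changed sign: *Emd* went to -0.069 with upper-quartile scaling and -0.040 with total counts only, and *Tmpo* ranged from -0.086 to 0.050 with a library left out (0.050 without WT replicate 1, 0.015 without *Cxcr2-/-* replicate 1) and was at 4.4e-04 without both *Cxcr2-/-* replicates 3 and 4. With libraries left out, the log2 ratio differences ranged from -2.34 to -2.0002 for *Lmnb1* to *Lmnb2*, 1.71 to 2.24 for *Lbr* to *Lmna*, 0.39 to 0.56 for *Sun1* to *Sun2* and -1.14 to -0.57 for *Lmna* to *Lmnb1*. The smallest exact two-sided p for 3 against 4 mice is 0.0286. The first 3 ratios lost their call without *Cxcr2-/-* replicate 1, 2 or 3, and the last gained one without WT replicate 3, the mouse behind its overlap. For *Lmnb1* to *Lmnb2* the exact permutation p before adjustment stayed at 0.0286 with each library left out. Without both *Cxcr2-/-* replicates 3 and 4, chosen after seeing the data, the differences of the first 3 ratios were -2.65, 2.19 and 0.52, where the smallest p is 0.0667.

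Requiring at least a 1.5-fold change too left 6 higher and 3 lower of the lamin processing and other envelope genes, and 8 higher and 0 lower of the nuclear pore genes. The nuclear pore genes called lower numbered 4 with upper-quartile scaling, 1 with no filter, 1 with the replicate block, and 1 to 3 with a library left out (1 without WT replicate 2 or 4 or without *Cxcr2-/-* replicate 1, 2 or 3). The replicate numbers mark different mice, and the correlations of same-numbered deviations were weak (0.12, -0.19, 0.16 and -0.26). The best match had the same number for replicates 1 and 3 and another number for replicates 2 and 4. Whether mice of the same number shared a batch was not tested. The replicate block changed no other call count of the members or lists by over 1.5 times. The cause of these shifts was not tested. An exact sign-flip test on ratios paired by number (replicate block) cannot go below 0.125, so the differences of -2.17, 1.96 and 0.49 lost their call there.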
